A study of Homo sapiens with 48 samples.

Results

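The genes examined were the collagen prolyl and lysyl hydroxylases P4HA1, P4HA2, PLOD1, PLOD2, PLOD3 and P3H1, together with CRTAP, the partner that P3H1 needs. They were found in the count tables through the Ensembl identifier of each symbol (ENSG00000122884, ENSG00000072682, ENSG00000083444, ENSG00000152952, ENSG00000106397, ENSG00000117385 and ENSG00000170275 in the same order), and all 7 were present among the 14685 genes. The set was selected on earlier results of these data, in which the T-REX comparisons were already known. Member values from T-REX comparisons are therefore a description and carry no test. The comparisons among control arms and the time courses within them do not use the T-REX libraries as a contrast and are tested. The control libraries are, however, the other side of the contrasts on which the set was selected, so these tests are not independent of the selection.

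Collagen chains are modified in the endoplasmic reticulum before they fold. Prolyl 4-hydroxylase, a complex of a catalytic alpha subunit (P4HA1 or P4HA2) with the protein disulfide isomerase P4HB, makes the hydroxyproline that keeps the triple helix stable at body temperature. The lysyl hydroxylases PLOD1, PLOD2 and PLOD3 make the hydroxylysine that carries sugars and forms crosslinks, PLOD2 being the enzyme that acts on the telopeptides, and the complex of P3H1, CRTAP and cyclophilin B (PPIB) makes 3-hydroxyproline. The enzymes use oxygen, iron, ascorbate and 2-oxoglutarate. Some of their genes, P4HA1 and PLOD2 among them, are known to be switched on by hypoxia-inducible factors. Which of the other members are such targets is not treated here.

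All 48 libraries came from HEK293T cells, a human embryonic kidney line, that were transfected with a plasmid expressing NCBP1, a cap-binding protein of nuclear RNA, fused to Halo. In T-REX, a photocaged precursor of the lipid-derived electrophile HNE (Ht-PreHNE) is held on Halo and released by light, so that the fused protein is HNEylated. Below, values against the 3 controls are given in the fixed order of light alone, probe alone, DMSO. The T-REX arm received the probe and light. Light alone is listed in the methods as probe in DMSO with light, probe alone as probe without light, and DMSO as vehicle without light. As printed there, the components of light alone do not differ from those of T-REX, so what sets these arms apart is known here only from their names. Each arm had 4 replicates at 3, 6 and 12 h. The plasmid was present in every arm, and no arm without it was analysed here. Because all arms came from transfected cultures of 1 line, the levels are averages over transfected and untransfected cells, and fewer cells with a transcript cannot be told apart from less of it per cell.

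Library totals ranged from 23952455 to 37099535 counts, and the lowest count of any of the 7 genes in any library was 312. Of the HEK293T markers, 5 of 6 were in the tables, with VIM at 437 to 668, NEFL at 33.4 to 98.5, NEFM at 22.2 to 46.4 and LHX1 at 0.771 to 3.15 CPM (CPM, counts scaled to a common library size after TMM normalization), and PAX2 was absent from them. Of the fibroblast markers, 1 of 6 was in the tables (COL1A1, 2.13 to 6.07 CPM), and leukocyte and hepatocyte markers were at 0 of 4 and 0 of 3. NCBP1, whose counts do not separate plasmid from endogenous transcript, was at 57501 ± 5339 CPM with T-REX at 12 h (mean ± SD, n = 4), against 40520 ± 6848 for light alone, 59151 ± 10048 for probe alone and 34642 ± 4554 for DMSO. The libraries farthest from the mean of their arm were T-REX replicates 1 and 3 at 3 h, light alone replicate 3 at 6 h and DMSO replicate 3 at 12 h, with a root mean square deviation of 0.212 to 0.229 on the log2 scale over the genes with enough counts (mean log2 CPM over 3), against a median of 0.103. Calls that rest on these libraries are also given without them, while the correlations are not.

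Per kilobase of exon, P4HA1 had 16 CPM on average over the 48 libraries, CRTAP 15.5 and PLOD2 15.1. PLOD1 followed at 7.07 and P3H1 at 5.71 CPM per kilobase. PLOD3 and P4HA2 were the lowest, at 3.53 and 2.26. In both hydroxylase families, therefore, a single member (P4HA1, PLOD2) had the highest level per length. Lengths are unions of exons in GENCODE 29, which may differ from the annotation that was used for counting.

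The prolyl 4-hydroxylase subunit P4HA1 had overlapping levels across the arms at 3 h and was lower in the T-REX arm at 12 h. At 12 h, P4HA1 stood at 39.2, 42.5, 47.5 and 41.7 CPM in T-REX replicates 1 to 4. Light alone gave 58.3, 72.1, 61.3 and 60.1 CPM, probe alone 65.9, 59.7, 65.2 and 53.6 CPM, and DMSO 56.3, 68.6, 70.5 and 62.7 CPM. All 4 T-REX libraries were thus below all 12 control libraries, the nearest being 47.5 against 53.6 CPM. For this and the other separations of groups given below, the share of all genes that separate likewise is not given here. Against the 3 controls, the log2 fold changes of P4HA1 at 12 h were -0.56 ± 0.08, -0.52 ± 0.08 and -0.60 ± 0.08 (SE). At 3 h the groups overlapped, with 41.2 to 46.6 CPM in the T-REX arm and 39.8 to 49.8 CPM over the 12 control libraries. At 6 h, P4HA1 was at 40.1, 39.1, 41.1 and 37.8 CPM with T-REX. Light alone gave 42.1, 53.4, 54.9 and 44.4 CPM, probe alone 55.1, 57.0, 44.4 and 38.4 CPM, and DMSO 52.0, 46.3, 47.9 and 43.7 CPM. Only probe alone replicate 4 came within the T-REX range at that time, and the log2 fold changes were -0.30 ± 0.11, -0.30 ± 0.11 and -0.27 ± 0.11.

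PLOD2, the telopeptide lysyl hydroxylase, showed the larger difference at 12 h. Its levels at 12 h were 90.2, 91.7, 96.9 and 91.0 CPM with T-REX. They were 142, 147, 144 and 135 CPM with light alone, 152, 152, 149 and 123 CPM with probe alone, and 143, 166, 199 and 133 CPM with DMSO. No T-REX library reached the lowest control library, and the 4 T-REX values lay close together. Against the 3 controls, PLOD2 had log2 fold changes of -0.62 ± 0.09, -0.64 ± 0.09 and -0.79 ± 0.09. DMSO replicate 3 had the highest PLOD2 level of the 48 libraries (199 CPM) and also the lowest PLOD3 level (11.8 CPM). Without it, both P4HA1 and PLOD2 were still called against all 3 controls at 12 h. At 6 h the PLOD2 groups did not overlap either, with 86.4 to 94.8 CPM in the T-REX arm and 97.4 to 149 CPM over the 12 controls, the highest of which was light alone replicate 3. These 6 h levels gave log2 fold changes of -0.39 ± 0.11, -0.37 ± 0.11 and -0.33 ± 0.11. At 3 h, T-REX gave 90.6, 103, 89.9 and 81.2 CPM. Light alone gave 91.0, 93.8, 99.7 and 95.8 CPM, probe alone 115, 121, 112 and 103 CPM, and DMSO 122, 118, 100 and 111 CPM. PLOD2 in the T-REX arm at 3 h thus overlapped light alone and was mostly below the other controls, with log2 fold changes of -0.06 ± 0.07, -0.29 ± 0.07 and -0.30 ± 0.07.

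**Figure D1:**
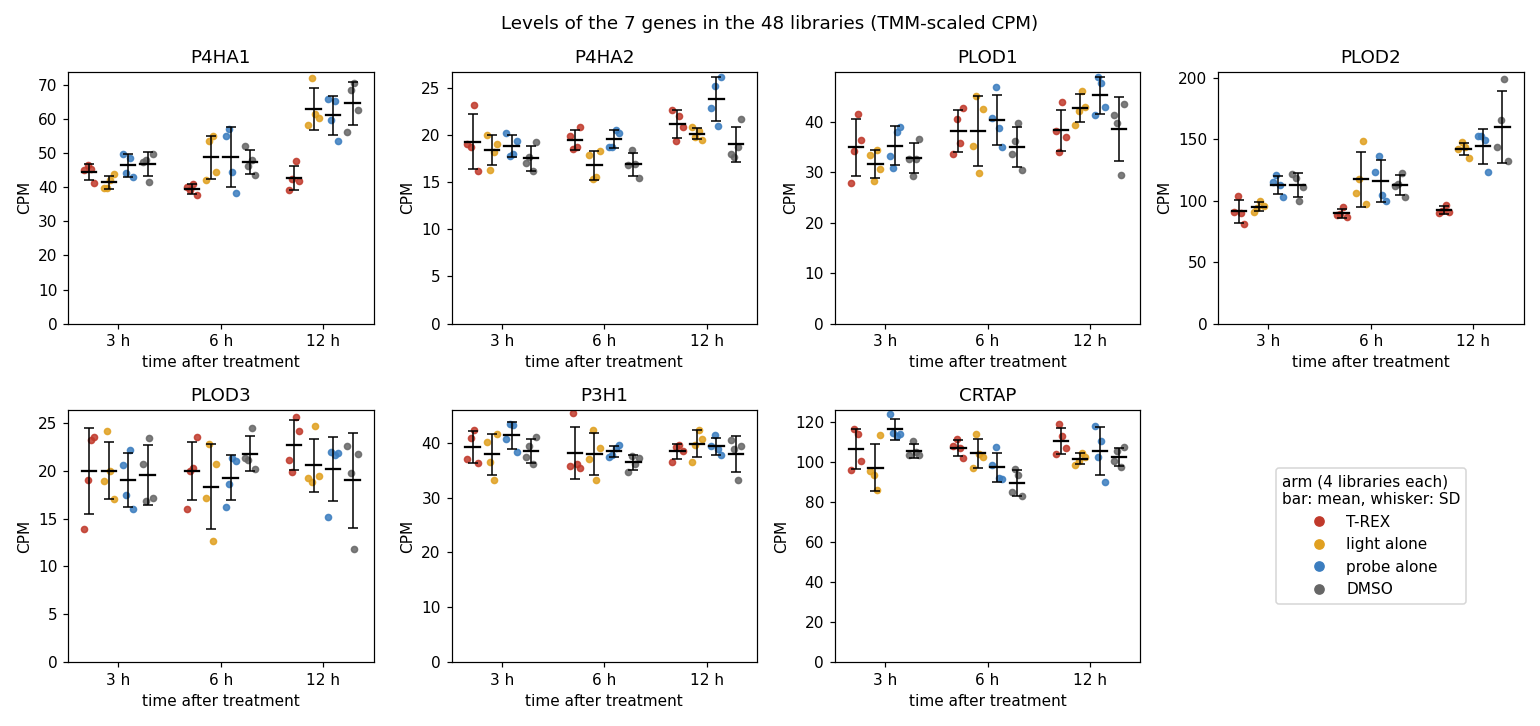
Levels of the 7 genes in each library as TMM-scaled CPM (y axis, from 0) at 3, 6 and 12 h (x axis), with 4 points per arm, a bar for the mean and a whisker for the SD. P4HA1 and PLOD2 rose in the control arms between 3 and 12 h, where the T-REX libraries lay at 39.2 to 47.5 CPM and 90.2 to 96.9 CPM.

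The promoters of the members were read because P4HA1 and PLOD2 moved together. The 250 bases before the RefSeq start of each gene (build GRCh38.p14) were searched for ACGTG and GCGTG, the core letters bound by hypoxia-inducible factors, on both strands (as CACGT and CACGC on the other strand; CACGTG would count as 2). The sequences of P4HA1 (chr10:73096867-73097116, minus strand) and PLOD2 (chr3:146161185-146161434, minus strand) are shown 5′ to 3′ with the matches in capitals, and that of PLOD3 (chr7:101217582-101217831, minus strand), a lysyl hydroxylase that was not called, stands beside them.

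P4HA1: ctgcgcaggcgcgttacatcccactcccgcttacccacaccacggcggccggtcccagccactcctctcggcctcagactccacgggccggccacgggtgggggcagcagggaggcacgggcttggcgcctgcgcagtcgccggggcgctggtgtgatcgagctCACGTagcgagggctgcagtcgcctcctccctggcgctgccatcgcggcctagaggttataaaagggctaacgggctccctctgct

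PLOD2: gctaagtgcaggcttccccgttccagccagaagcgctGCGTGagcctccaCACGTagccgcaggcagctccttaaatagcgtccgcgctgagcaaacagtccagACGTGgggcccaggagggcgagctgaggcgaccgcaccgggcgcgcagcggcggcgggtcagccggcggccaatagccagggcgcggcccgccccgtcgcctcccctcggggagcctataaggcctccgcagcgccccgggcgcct

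PLOD3: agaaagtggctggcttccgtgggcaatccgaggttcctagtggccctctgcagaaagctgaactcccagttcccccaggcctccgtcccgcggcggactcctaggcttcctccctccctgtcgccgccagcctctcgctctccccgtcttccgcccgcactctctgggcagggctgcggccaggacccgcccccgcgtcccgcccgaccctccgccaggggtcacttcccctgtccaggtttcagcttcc

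P4HA1 had 1 match to ACGTG, read as CACGT, whose first base is 86 bases before the start. PLOD2 had 2 matches to ACGTG, at 200 and 146 bases before the start, and 1 to GCGTG at 213. PLOD3 and P4HA2 had no match. PLOD1, another lysyl hydroxylase that was not called, had 2 matches, P3H1 1 and CRTAP 1, all to GCGTG. Among the 35116 RefSeq promoters of this length, 18.5% held ACGTG and 32.2% held GCGTG on either strand, and 43.2% held at least 1 of them. A match is a description of letters, and binding was not measured.

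Of the 7 genes, 0 were called at 3 h against light alone (0.197% of all genes were called, edgeR's quasi-likelihood test with an adjusted p of at most 0.05). Against probe alone (1.05% of all genes) and DMSO (5.99%), 1 was called at 3 h, PLOD2 in both. At 6 h, edgeR called 0 members in each comparison, where 0.218%, 0.109% and 0.415% of all genes were called. With unadjusted p-values the 6 h counts at or under 0.05 were 3, 3 and 4 of 7 members, beside 1711, 964 and 1826 of the 14685 genes (0 members and 2174 genes at 3 h against light alone, where DESeq2 also called 0 members), and DESeq2 called 1, 0 and 1, namely PLOD2 against light alone and CRTAP against DMSO. At 12 h, 2 members, P4HA1 and PLOD2, were called against light alone (1.29% of all genes), probe alone (0.701%) and DMSO (10.9%). The 3 comparisons of a time share the T-REX libraries, and since these contrasts were known when the genes were chosen, the counts are set beside the shares of all genes without a test. The PLOD2 calls at 3 h were lost without the 2 T-REX libraries that stood apart, where the log2 fold change was -0.27 against probe alone and -0.28 against DMSO, and the call against probe alone was also lost without any 1 of 9 libraries (T-REX replicate 1 or 4, light alone 1 or 4, probe alone 1, 2 or 3, DMSO 1 or 2). The call against DMSO was lost without DMSO replicate 1 or 2.

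The other 5 genes were not called in any T-REX comparison. The second prolyl 4-hydroxylase subunit, P4HA2, was at 19.3 to 22.6 CPM with T-REX at 12 h and at 17.6 to 26.1 CPM in the controls, with log2 fold changes of 0.08 ± 0.09, -0.17 ± 0.09 and 0.16 ± 0.09. Its direction thus depended on the control. PLOD1, a lysyl hydroxylase of the helical part of the chain, was at 34.1 to 44.0 CPM with T-REX at 12 h and at 29.5 to 48.8 CPM in the controls, and its log2 fold changes ran from -0.24 ± 0.10 (probe alone) to -0.01 ± 0.10 (DMSO). PLOD3, which also adds sugars to hydroxylysine, was at 19.9 to 25.6 CPM with T-REX at 12 h and at 11.8 to 24.7 CPM in the controls. PLOD3 had the widest spread of the 7 genes, with a median SD of 0.22 (log2) within an arm and time, against 0.092 for CRTAP, and its differences at 12 h were 0.15 ± 0.16, 0.17 ± 0.16 and 0.25 ± 0.16 on the log2 scale. The prolyl 3-hydroxylase P3H1 had the smallest spread within an arm and time (0.089), with group means from 36.5 to 41.4 CPM and log2 fold changes at 12 h from -0.05 ± 0.07 to 0.02 ± 0.07. CRTAP, which holds P3H1 in its complex but has no catalytic activity, was at 104 to 119 CPM with T-REX at 12 h and at 90.2 to 118 CPM in the controls. At 6 h against DMSO it had the largest positive value among the members (log2 fold change 0.26 ± 0.06, not called), and the replicate levels of CRTAP in the DMSO arm at that time ran from 82.8 to 96.4 CPM against 102 to 112 CPM with T-REX. The CRTAP groups at 6 h therefore did not overlap in that comparison, although T-REX and light alone (96.8 to 114 CPM) did. Leaving out light alone replicate 3 or DMSO replicate 2 at 6 h brought CRTAP past the threshold against DMSO.

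**Figure D2:**
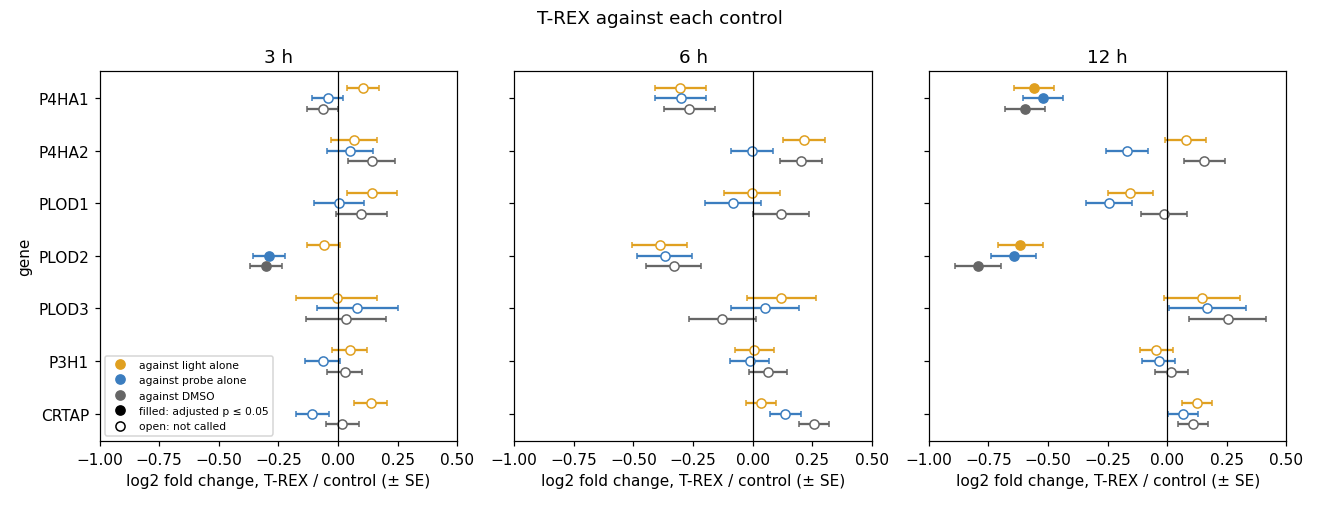
Log2 fold change of T-REX over each control (x axis, whisker ± SE) for the 7 genes (y axis) at 3, 6 and 12 h, with colour for the control and filled points for an adjusted p of at most 0.05. At 12 h the filled points are P4HA1 (-0.52 to -0.60) and PLOD2 (-0.62 to -0.79), and the other genes lie between -0.24 and 0.25.

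The time courses of the control arms were tested in 1 fit of the 48 libraries. The control libraries also stood in the T-REX contrasts on which the genes were chosen, so the p-values below are not independent of that choice. P4HA1 and PLOD2 rose from 3 to 12 h in every control arm. In the order above, the log2 fold changes of P4HA1 were 0.61 ± 0.09 (adjusted p = 6.7e-07), 0.40 ± 0.09 (adjusted p = 0.00040) and 0.47 ± 0.09 (adjusted p = 5.4e-05). Those of PLOD2 were 0.58 ± 0.10 (adjusted p = 1.9e-05), 0.36 ± 0.10 (adjusted p = 0.0048) and 0.51 ± 0.10 (adjusted p = 0.00012). In the T-REX arm the means of P4HA1 were 44.5 ± 2.3, 39.5 ± 1.4 and 42.7 ± 3.5 CPM at 3, 6 and 12 h, and those of PLOD2 were 91.3 ± 9.2, 89.7 ± 3.6 and 92.5 ± 3.0 CPM (SD, n = 4). The T-REX levels of both genes at 12 h were therefore within the range of their 3 h levels or close to it, as far as 4 libraries show. The difference in time course was -0.67 ± 0.13 for P4HA1 (log2, T-REX over light alone at 12 h minus 3 h), and -0.46 ± 0.13 and -0.53 ± 0.13 with probe alone and DMSO as the control. It was past the threshold of the fit across all genes with light alone and not with the other 2 controls. The corresponding values for PLOD2 were -0.56 ± 0.15, -0.34 ± 0.15 and -0.49 ± 0.15. These differences include the T-REX contrasts and are descriptions.

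PLOD1 also rose from 3 to 12 h, by 0.43 ± 0.12 with light alone (adjusted p = 0.0035) and 0.36 ± 0.12 with probe alone (adjusted p = 0.013). With DMSO the PLOD1 value was 0.24 ± 0.12 (adjusted p = 0.11), and 0.34 without DMSO replicate 3 at 12 h, the library with the lowest PLOD1 level of that arm (29.5 CPM), where it was called. P4HA2 rose in the probe alone arm (0.34 ± 0.09, adjusted p = 0.0016), and PLOD3 and P3H1 were called in none of the 6 time comparisons (adjusted p of 0.34 or more). In all, 3 members were called at 12 h against 3 h with light alone (39.4% of all genes), 4 with probe alone (42.3%) and 2 in the DMSO arm (38.8%). At 6 h against 3 h, 1 member was called in each arm, where 25.3%, 21.5% and 16% of all genes were called. The shares of members called at 12 h, 2 to 4 of 7, were thus near the shares of all genes called over the same times. With light alone the gene at 6 h was PLOD2 (0.30 ± 0.10, adjusted p = 0.027), whose call was lost without replicate 3 at 6 h (0.17, adjusted p = 0.26) or without replicate 1 or 2 at 3 h. With probe alone and DMSO it was CRTAP, which fell by 0.26 ± 0.07 (adjusted p = 0.0060) and by 0.24 ± 0.07 (adjusted p = 0.014); the call with DMSO was lost without 3 h replicate 2 or 6 h replicate 1 or 4. Time cannot be told apart from a batch that the libraries of a time point might share.

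**Figure D3:**
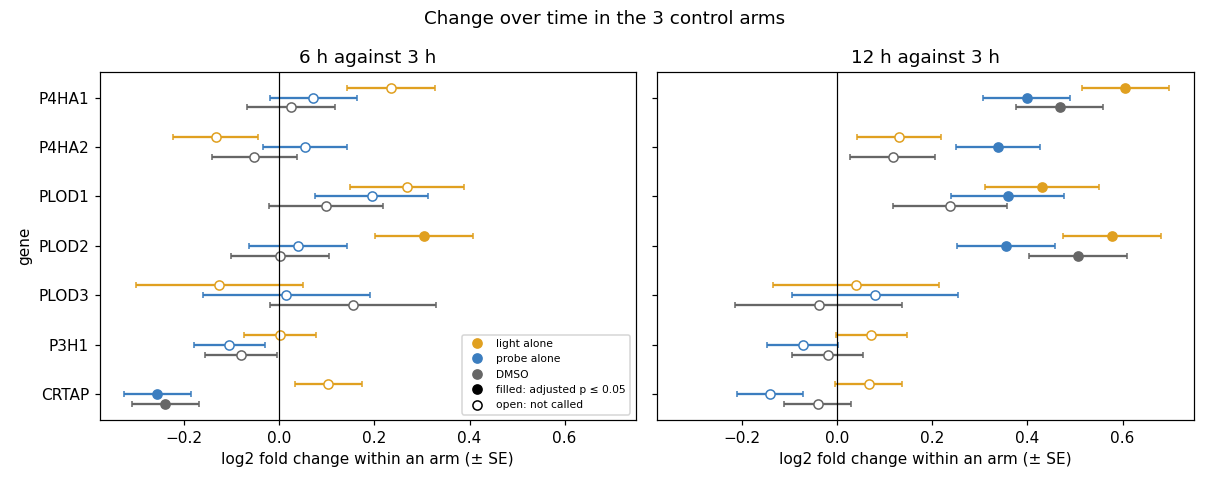
Log2 fold change of 6 h and 12 h against 3 h (x axis, whisker ± SE) for the 7 genes (y axis) within light alone, probe alone and DMSO, with filled points for an adjusted p of at most 0.05. At 12 h P4HA1 and PLOD2 are filled in all 3 arms, between 0.36 and 0.61.

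In the order of group means, the 3 control arms at 12 h were the 3 highest of the 12 groups for both genes, at 61.1 to 64.5 CPM for P4HA1 and 142 to 160.2 CPM for PLOD2. For PLOD2 the T-REX arms took the last 3 places, below light alone at 3 h (95.1 ± 3.7 CPM). P4HA1 was lowest with T-REX at 6 h (39.5 ± 1.4 CPM), followed by light alone at 3 h (41.4 ± 1.9 CPM) and T-REX at 12 h (42.7 ± 3.5 CPM). Among neighbours in these orders, a single pair had ranges that did not overlap, PLOD2 with probe alone at 3 h (103 to 121 CPM) and light alone at 3 h (91.0 to 99.7 CPM).

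The control arms were compared with one another to see how far the members moved without the T-REX libraries. At 3 h, 0 of 7 members were called for light alone against DMSO (0.00681% of all genes), probe alone against DMSO (0.00681%) and light alone against probe alone (0.232%). At 6 h, 0 were called in the same comparisons (0.00681%, 0.0272% and 0.0613% of all genes). At 12 h, 0 were called for light alone against DMSO (0.0136%) and for light alone against probe alone (0.415%), and 1 for probe alone against DMSO (5.11%). That gene was P4HA2, at 20.9 to 26.1 CPM with probe alone and 17.6 to 21.7 CPM with DMSO (log2 fold change 0.33 ± 0.09, adjusted p = 0.031, edgeR), ranges that overlapped. The P4HA2 call was lost when probe alone replicate 1, 2 or 4 or DMSO replicate 2 was left out. In the comparisons without a call, 0 to 3 members had an unadjusted p of at most 0.05, beside 751 to 2109 of the 14685 genes. For light alone against probe alone at 3 h, the comparison with 3 members, the number of genes was 2060. In the same comparisons, DESeq2 called 1 member in 1 of them, CRTAP for light alone against probe alone at 3 h. The values for P4HA1 between controls at 12 h ran from -0.08 ± 0.08 to 0.04 ± 0.08, and those for PLOD2 from -0.18 ± 0.09 (light alone against DMSO, adjusted p = 0.52) to -0.03 ± 0.09. At 3 h, PLOD2 was lower with light alone than with DMSO by a log2 fold change of -0.24 ± 0.07 that missed the threshold (adjusted p = 0.34), and by -0.23 ± 0.07 than with probe alone (adjusted p = 0.15).

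A ratio of counts within a library does not depend on how libraries are scaled. P4HA1 took 63.4% to 68.8% of the P4HA1 and P4HA2 counts in the 4 T-REX libraries at 12 h, with a mean of 66.8% ± 2.4 (SD). In the 3 controls at 12 h the mean share was 75.7% ± 2.0, 71.9% ± 3.8 and 77.2% ± 2.5. The T-REX range lay below those of light alone and DMSO and overlapped that of probe alone, in which P4HA2 was higher. PLOD2 took 60.3% ± 2.0 of the counts of the 3 PLOD genes with T-REX at 12 h. In the controls it took 69.2% ± 1.9, 68.7% ± 3.1 and 73.1% ± 7.0. All 4 T-REX libraries (58.2% to 62.9%) were below all control libraries (65.5% or more). At 3 h the shares were closer, with 69.9% ± 2.6 (P4HA1) and 62.5% ± 5.5 (PLOD2) in the T-REX arm and control means of 69.3% to 72.7% and 64.8% to 68.2%. The 95% exact (Clopper-Pearson) binomial intervals of a single library were at most 4.71 and 3.28 percentage points wide, and cover counting error only. Between control arms, 18 differences of shares were tested with a two-sided exact permutation test of 4 against 4, whose smallest possible p is 0.029. A single difference reached it, the P4HA1 share with light alone against DMSO at 3 h (69.3% against 72.7%), and none passed after Benjamini-Hochberg adjustment (smallest adjusted p = 0.51, exact test).

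**Figure D4:**
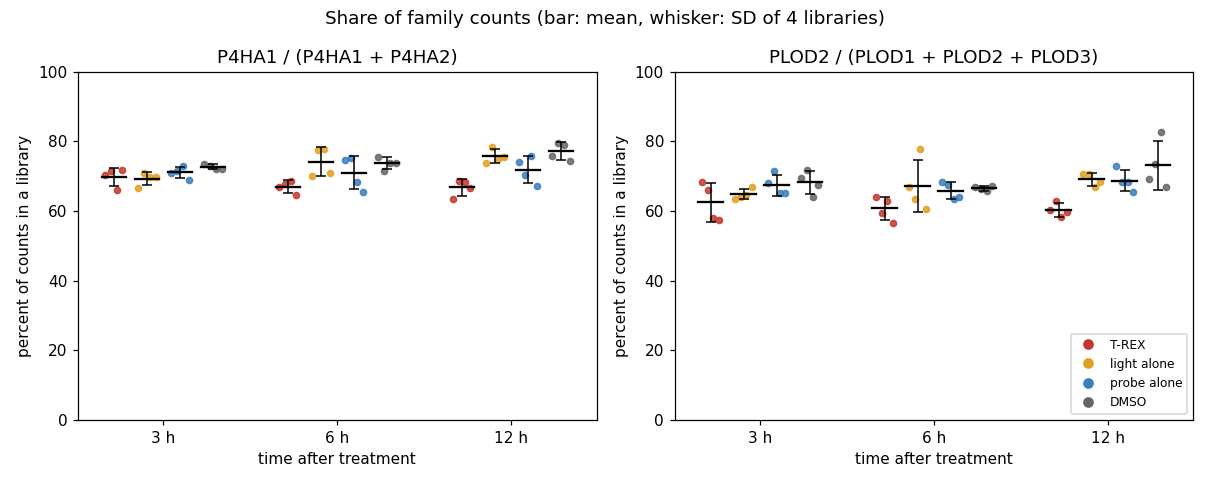
Share of P4HA1 in the counts of P4HA1 and P4HA2 (left) and of PLOD2 in those of PLOD1, PLOD2 and PLOD3 (right), in percent of counts (y axis, 0 to 100) for each library at 3, 6 and 12 h, with the mean and SD of 4 libraries. At 12 h the T-REX means are 66.8% and 60.3%, the lowest of the 4 arms in both panels.

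Genes that act with the members gave few calls, and few of all genes were called in most of the same comparisons. Of the 8 partner and other collagen-modifying genes in the tables (10 listed), 0 were called with T-REX against any control at any time by edgeR or DESeq2, and 0 to 2 per comparison had an unadjusted p up to 0.05 (964 to 3957 of the 14685 genes did). P4HB, the beta subunit of prolyl 4-hydroxylase, had log2 fold changes at 12 h of 0.09 ± 0.06, 0.01 ± 0.06 and 0.10 ± 0.06. PPIB, the cyclophilin of the P3H1 complex, had 0.11 ± 0.07, -0.12 ± 0.07 and 0.11 ± 0.07. P3H4, a relative of P3H1 without hydroxylase activity, had 0.13 ± 0.13, -0.04 ± 0.12 and 0.30 ± 0.13, and COLGALT1, which adds galactose to hydroxylysine, had 0.00 ± 0.07, -0.03 ± 0.07 and -0.01 ± 0.07. At an unadjusted p up to 0.05 the collagen chaperone and export genes gave 0 to 4 and the collagen chains 0 to 7 genes per comparison. Of 18 collagen chaperone, export and crosslinking genes in the tables, 1 was called in 1 of the 9 T-REX comparisons, ADAMTS3 (an N-propeptide protease, -0.26 ± 0.08 at 12 h against DMSO, named after its value was seen). The collagen chaperone SERPINH1 had -0.16 ± 0.08, -0.09 ± 0.08 and -0.03 ± 0.08 at 12 h. Of 22 collagen chains, 2 were called, both at 12 h against DMSO and named after their values were seen, COL6A5 (0.73 ± 0.21) and COL14A1 (-0.28 ± 0.09). The median log2 fold change of the collagen chains at 12 h was -0.13, -0.08 and 0.03 against the 3 controls, where that of all genes was 0.00. For comparison, 0.197%, 1.05% and 5.99% of all genes were called at 3 h against the 3 controls. At 6 h the shares were 0.218%, 0.109% and 0.415%, and at 12 h 1.29%, 0.701% and 10.9%. At 12 h against DMSO, 4.09% of all genes were called higher and 6.79% lower. The few calls in lists of 8, 18 and 22 genes do not stand out from these shares.

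The members other than CRTAP are 2-oxoglutarate oxygenases, and 43 other genes of that class were in the tables. At 12 h, 2, 2 and 6 of the 43 were called lower against the 3 controls, and 1, 0 and 1 were called higher. Of all genes, 0.790%, 0.504% and 6.79% were called lower, and 0.497%, 0.197% and 4.09% higher. Without T-REX replicate 1 or light alone replicate 3, 1 gene of the 43 was called against light alone. The genes lower against all 3 controls were EGLN3, a prolyl hydroxylase that marks hypoxia-inducible factors for degradation (-0.57 ± 0.12, -0.70 ± 0.12 and -0.74 ± 0.12), and KDM3A, a histone H3 lysine 9 demethylase (-0.49 ± 0.08, -0.35 ± 0.08 and -0.44 ± 0.08). KDM7A, another histone demethylase, was called higher against light alone (0.25 ± 0.05) and DMSO (0.23 ± 0.05). KDM3A was called lower against probe alone and DMSO at 3 h (-0.27 ± 0.05 and -0.38 ± 0.05) and 6 h (-0.43 ± 0.06 and -0.32 ± 0.06) as well, and TET1, which oxidises methylcytosine, against the same controls at 3 h (-0.20 ± 0.04 and -0.24 ± 0.04). The median of the class at 12 h was 0.00, -0.01 and 0.02.

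A list of hypoxia-responsive genes that holds neither P4HA1 nor PLOD2 was set beside them, and since it was chosen with earlier results of these data known, it is no independent evidence of a direction. At 12 h, 15 of its 25 genes were called lower against light alone (0.790% of all genes were called lower and 0.497% higher), 12 against probe alone (0.504% lower, 0.197% higher) and 14 against DMSO (6.79% lower, 4.09% higher). None of the 25 was called higher at 12 h by edgeR, where the median log2 fold changes of the list were -0.47, -0.43 and -0.44. The largest changes by the naming rule were those of STC1, a secreted glycoprotein (-1.36 ± 0.24, -0.99 ± 0.24 and -1.06 ± 0.24, not called against probe alone), BNIP3, a mitophagy receptor (-0.81 ± 0.10, -0.89 ± 0.10 and -0.78 ± 0.10), and LDHA, the lactate dehydrogenase of glycolysis (-0.69 ± 0.08, -0.63 ± 0.08 and -0.72 ± 0.08). Against probe alone the count fell to 5 to 7 when T-REX replicate 1, 2 or 4 or probe alone replicate 1, 2 or 3 was left out. In fits of only the 2 arms compared, 20, 19 and 9 genes of the list were called, and without the libraries that stood apart 19, 16 and 15. At 6 h, 0, 5 and 2 genes of the list were called lower against the 3 controls, and at 3 h 0, 4 and 7. Of all genes, 0.218%, 0.109% and 0.415% were called in either direction at 6 h, and 0.197%, 1.05% and 5.99% at 3 h. BNIP3L, a mitophagy receptor like BNIP3, was lower at 3 h (-0.26 ± 0.06, -0.27 ± 0.06 and -0.32 ± 0.06, not called against light alone), and STC1 at 6 h (-1.29 ± 0.30, -1.93 ± 0.29 and -1.65 ± 0.30, not called against light alone). STC2, a relative of STC1, was called higher at 3 h against light alone (0.29 ± 0.05) and DMSO (0.21 ± 0.05). EGLN1, EGLN3 and KDM3A stand in both this list and the oxygenase list.

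**Figure D5:**
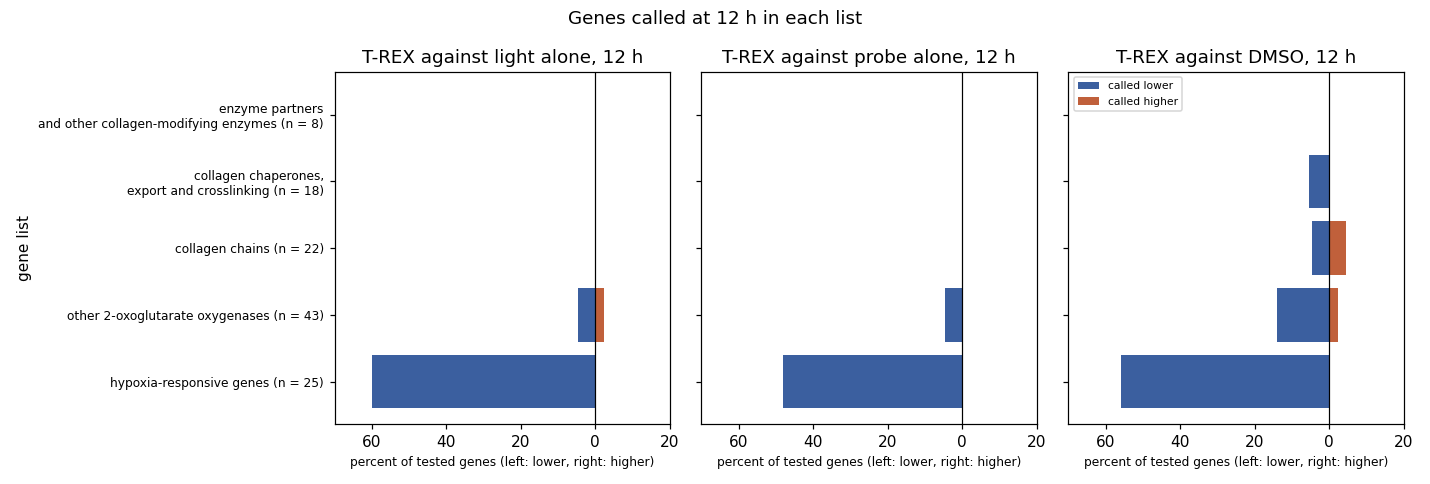
Percent (x axis) of the tested genes of each list (y axis) that were called lower (left of 0) or higher (right of 0) with T-REX at 12 h against each control. The hypoxia-responsive list has 15, 12 and 14 of 25 genes called lower, and the 8 partner genes have no call.

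P4HA1 and PLOD2 followed each other over the libraries. After the mean of each time was subtracted, their log2 CPM had a Pearson r of 0.89 over the 48 libraries, and 0.75 over the 36 control libraries after the mean of each arm and time was subtracted. Among the 10127 other genes with a mean log2 CPM above 3, those most like P4HA1 were LDHA (r = 0.88), BNIP3 (r = 0.87), the pyruvate dehydrogenase kinase PDK1 (r = 0.85), the MAX-binding repressor MXI1 (r = 0.82) and the synaptic adhesion gene NRXN3 (r = 0.79). Most like PLOD2 were LDHA (r = 0.89), the transferrin receptor TFRC (r = 0.87), the kinase substrate MARCKS (r = 0.85), the kinase gene MAP2K6 (r = 0.84) and BNIP3 (r = 0.84). LDHA and BNIP3 thus stood in both groups. P4HA2 had an r of -0.24 with P4HA1, and PLOD3 an r of -0.43 with PLOD2. Other pairs of members also correlated over the 36 control libraries, among them PLOD1 with PLOD3 (r = 0.57), P4HA1 with CRTAP (r = 0.50) and PLOD2 with PLOD3 (r = -0.55). The correlations were not computed without the libraries that stood apart. These are descriptions over libraries that share arms and library-wide differences, and no test was made.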

How the data were processed

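RNA was measured in 48 libraries of HEK293T cells (4 arms, 3 time points, 4 replicates each, described as biological replicates). The authors deposited counts per gene that were not normalized, log2 CPM per gene and, as a score per library, 2 factors of unwanted variation (RUV). The authors' tables of RUV-transformed values were not used. Stranded libraries were made after depletion of ribosomal RNA, and reads were converted with bcl2fastq. Cutadapt, TopHat and Cufflinks are listed for the RNA-seq in a reporting form, but the counter and genome build of the counts are not given in the sources used here. The only positions given are therefore those of the RefSeq promoters, and treatment of reads that overlap genes is unknown.

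Counts were tested with edgeR 4.0.16 in R 4.3.3 (TMM, filterByExpr, estimateDisp and robust glmQLFit, quasi-likelihood F-test), on the 16 libraries of a time point for arms and on all 48 for times, with Benjamini-Hochberg adjustment over the 14685 genes of a comparison. The filter removed 0 genes. A gene is called at an adjusted p up to 0.05. Levels are CPM scaled by TMM over the 48 libraries. Symbols came from a table of gene names and from GENCODE 29, and promoters from RefSeq. The fits were tested on simulated data with 200 changed genes, drawn at random from all 14685 whatever their level. For T-REX against DMSO at 12 h, 42.2% of genes with a log2 change of 0.3 and 66.7% of those with 0.6 were recovered; at 6 h these shares were 26.2% and 66.7%, at 3 h 24.7% and 60.3%, and for DMSO at 12 h against 3 h 36.7% and 82.1%. In each of the 72 pairs of replicates the counts varied beyond sampling noise (chi-square per degree of freedom of at least 3.15).

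The members and lists were chosen with earlier results of these data known. Besides the members, the text names at each time up to 3 genes of each list called with 1 sign against 2 or more of the 3 controls (those with the largest value of the smallest log2 fold change in size), always P4HB, PPIB, SERPINH1, COLGALT1 and P3H4, the 5 genes most like P4HA1 and PLOD2 over the libraries, and NCBP1. Genes named outside the rule are marked. Alternatives were RLE factors, no filter, DESeq2 1.42.0, limma 3.58.1 (trend) on the deposited log2 CPM, a block for the replicate number, covariates from the RUV factors, fits restricted to the groups compared, log2 ratios for shares, and leaving out each library. Leaving out the 4 libraries farthest from their arm means was added after the data were seen.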

Additional observations from a re-analysis of the deposited data

Results flagged for a closer look

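For P4HA1, the log2 fold change of T-REX over light alone at 12 h minus that at 3 h was -0.67 ± 0.13, and it is listed because it was past the threshold in the fit across all genes (3 of 14685 genes were). The same difference was -0.46 ± 0.13 against probe alone and -0.53 ± 0.13 against DMSO, neither past the threshold. The genes were chosen on these contrasts, so the values are a description and support no difference between times. In 5 of 108 groups of 4 libraries, 1 library lay far from the other 3 by Dixon's rule, which chance flags in about 1 of 20 groups (5%). PLOD2 with probe alone at 12 h was 123 CPM in replicate 4 and 149 to 152 CPM in the others. PLOD3 with light alone at 12 h was 24.7 CPM in replicate 3 and 18.8 to 19.5 CPM in the others, and with probe alone at 12 h 15.1 CPM in replicate 1 and 21.7 to 22.0 CPM in the others. P3H1 with T-REX at 6 h was 45.4 CPM in replicate 2 and 35.5 to 36.2 CPM in the others. CRTAP with probe alone at 3 h was 124 CPM in replicate 1 and 113 to 114 CPM in the others.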

How the results depend on the processing

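P4HA1 and PLOD2 were called lower at 12 h against all 3 controls under every alternative, and the members called there stayed at 2 without any 1 library. The genes were chosen on these contrasts, so the stability of the calls is a description and adds no evidence. With the RUV factors as covariates, further members were called at 12 h with T-REX. These were PLOD1 against probe alone (log2 fold change -0.25) and PLOD3 against DMSO (0.29). RLE factors and no filter on low counts changed no count of members called. DESeq2 called 1 member for T-REX at 6 h against light alone and 1 against DMSO, 1 for light alone against probe alone at 3 h and 2 for light alone at 6 h against 3 h. limma-trend called 0 for T-REX against probe alone at 3 h. With the RUV factors as covariates, 2, 1 and 2 were called for T-REX at 6 h against light alone, probe alone and DMSO; between controls 1 (light alone against DMSO, 3 h), 2 (light alone against probe alone, 3 h), 2 (light alone against DMSO, 6 h), 1 (light alone against DMSO, 12 h), 3 (probe alone against DMSO, 12 h) and 1 (light alone against probe alone, 12 h) were called. In fits of only the groups compared, 0 were called for T-REX against probe alone and DMSO at 3 h, 2 against DMSO at 6 h, 1 for light alone against probe alone at 3 h, 0 for probe alone against DMSO at 12 h and 0 for light alone at 6 h against 3 h. Without the 4 libraries far from their arm means, 0 were called for T-REX against probe alone and DMSO at 3 h, 1 against DMSO at 6 h and 1 for light alone against probe alone at 3 h. The cause was not tested for any of these changes.

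Leaving out 1 library at a time gave 0 to 1 members for T-REX against probe alone and DMSO at 3 h and against DMSO at 6 h, for light alone against probe alone at 3 h, for probe alone against DMSO at 12 h and for DMSO at 6 h against 3 h, 0 to 2 for light alone at 6 h against 3 h, 4 to 5 for probe alone and 2 to 3 for DMSO at 12 h against 3 h. Taken over all comparisons, the replicate numbers did not pair the samples consistently, although they did so in part for some comparisons. In 72 pairs of same-numbered libraries the correlations of their deviations ran from -0.64 to 0.57 (median 0.00), and 31 were over 0.1. In 25 pairs the first library correlated best with its own number. For T-REX against probe alone at 6 h, all 4 pairs were over 0.1 (0.47, 0.24, 0.10 and 0.37) and each was best with its own number. There the block left the members called at 0 and gave 13 genes in all in place of 16. At 6 h, replicates 2, 3 and 4 were best with their own number for T-REX against light alone (0.23, 0.22 and 0.44), and replicate 1 was not. The same held for light alone against probe alone (0.41, 0.28 and 0.31). With the block, 50 genes in place of 32 and 25 in place of 9 were called in these comparisons, in that order. For T-REX against probe alone, replicates 2, 3 and 4 at 3 h and 1, 3 and 4 at 12 h were best with their own number. With the replicate block, 1 member was called for T-REX against DMSO at 6 h (CRTAP) and 2 for light alone at 6 h against 3 h, and the other 22 counts were the same. For the shares, the single p at or under 0.05 was lost without any 1 DMSO library. Over all genes, fits with the RUV factors called more than 1.5 times as many genes as edgeR in all 18 comparisons of arms and DESeq2 in 15 of 24. For T-REX against the 3 controls, edgeR called 29, 154 and 880 genes at 3 h, 32, 16 and 61 at 6 h, and 189, 103 and 1598 at 12 h. DESeq2 called 260, 623 and 1200, then 153, 57 and 288, then 409, 257 and 2069. The fits with RUV factors called 1733, 2551 and 3061, then 1202, 257 and 1048, then 1266, 901 and 3925, and those of only 2 arms 3, 3 and 187, then 9, 88 and 128, then 1127, 389 and 366. limma-trend called 88 against probe alone at 3 h.

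Depth limits little here, since each of the 7 genes had at least 312 counts per library. The spread between 4 libraries does: changes of 0.3 on the log2 scale were recovered in less than 50% of simulated cases.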
